A study of Mus musculus with 6 samples.

Results

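Integrins are cell surface receptors made of an alpha and a beta chain that tie cells to the matrix around them or to other cells. Laminins are secreted proteins of 3 chains (alpha, beta and gamma) that form the basement membrane, the sheet on which epithelial cells rest. In the mammary gland the basal epithelial cells, which include the stem cells, sit on this sheet and hold it through integrins such as Itga6 paired with Itgb1 or Itgb4, whereas leukocytes use their own set, built around Itgb2 and Itgb7, to stick to and cross other cells. All genes of both families on a mouse expression array were taken by name: the integrin alpha and beta chains, the integrin-like gene Itgbl1, and the laminin chains. This gave 38 genes with 53 probes, out of 34964 genes and 55681 probes on the array design. They comprised 5 integrin chains of laminin receptors, 4 of collagen receptors, 9 of receptors for RGD-containing and other matrix proteins, 8 leukocyte chains, Itgbl1, and 5 alpha, 3 beta and 3 gamma laminin chains.

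Total RNA was measured in 6 samples, each from mammary glands of virgin female mice and hybridised against one common reference RNA. A pair of samples held CD24+ CD29-high cells, the gate for basal cells called P4 and labelled MaSC (mammary stem cells), of strain C57/B6:Dll1-mCherry, sorted as mCherry+ (Dll1-high, 1 array) or mCherry- (Dll1-low, 1 array). The other samples were F4/80+ macrophages of Dll1-conditional KO mice, strain C57/B6:cKO-Dll1 (2 arrays), and of their wild type littermates, strain C57/B6 (2 arrays). The labels name neither the driver of the deletion, nor the cells that lose Dll1, nor the number or age of the animals behind a sample, so p-values measure only the spread between these samples. All values below are log2 ratios of sample to reference RNA, and differences are differences of these ratios. A ratio of 0 is the level of that gene in the reference and not absence, and ratios of different genes are not compared as levels.

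The medians of the basal and macrophage marker lists separated the cell types. Detection alone did not. Basal markers (keratins Krt5 and Krt14, contractile genes, Oxtr and Trp63) were well above background for 8 of 8 genes in the CD24+ CD29-high cells. On each macrophage array 7 or 8 of them were. Macrophage markers were well above background for 10 of 10 genes on both CD24+ CD29-high arrays. The median ratios of the basal markers were 4.01 and 3.84 in the CD24+ CD29-high cells, against 0.29 to 0.94 in macrophages. Of these genes 6 were higher in the CD24+ CD29-high cells by the test below. Trp63 and the contractile gene Mylk were not, with differences of -0.68 (SE 0.92) and 0.15 (SE 0.53). Their macrophage readings split by replicate number, high in replicates 1 and low in replicates 2. Trp63 read 1.52 and 0.12 in KO and 3.23 and 0.32 in WT macrophages. Mylk read 1.67 and 0.28 in KO and 1.42 and 0.20 in WT macrophages. The reason for the split was not tested. Luminal medians did not separate the cell types, at 0.63 and 1.05 against 0.43 to 0.94 in macrophages. Macrophage markers, by contrast, were at 4.02 and 4.43 (medians) in KO macrophages and at 2.20 and 4.00 in WT macrophages, against -0.03 in Dll1-high and 0.03 in Dll1-low cells. WT replicate 1 stood apart from the other macrophage arrays: it had the lowest macrophage median and the highest fibroblast median (0.81, against -0.51, -0.72 and -1.15). Adgre1, which encodes F4/80, read 1.86 there and 3.99 to 4.56 in the other macrophage samples. Dll1 itself read 0.80 and 2.25 in KO and 0.78 and 3.24 in WT macrophages, so the genotypes overlapped, and where the probe lies relative to the deletion is not stated in the labels. The share of spots with signal well above background was 86.0% and 88.1% for the CD24+ CD29-high cells and 47.4% to 71.9% for macrophages. The number of arrays limits the precision.

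Since 13 of the 38 genes had 2 or more probes and some of these gave different answers, the probes in question are shown before the values. Positions are those of the whole 60-base probe on mm9, all on the plus strand, per the array design, and whether a probe lies in a coding exon or a UTR was not analysed here. Itgam, the alpha chain of the macrophage integrin Mac-1, had 3 probes, at chr7:135261755-135261814, chr7:135260275-135260334 and chr7:135212140-135212199. The first is the brightest and begins with a run of CA units, marked in capitals; its first 30 bases and the whole of the other probes read as follows.
Itgam, CA-run probe: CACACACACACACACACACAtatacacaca
Itgam, second probe: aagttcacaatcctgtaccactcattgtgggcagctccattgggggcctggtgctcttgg
Itgam, dimmest probe: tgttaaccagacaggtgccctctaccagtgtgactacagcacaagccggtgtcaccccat

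Itga6, the alpha chain of the main laminin receptors of basal cells (CD49f), had a brighter probe at chr2:71694756-71694815, which holds a run of GTT units (capitals), and a dimmer one at chr2:71690633-71690692, designed to another transcript. Itgal, the alpha chain of LFA-1, had its brightest probe at chr7:134477160-134477219, a neighbouring probe at chr7:134477064-134477123 and one further upstream at chr7:134474711-134474767. For these, 30 bases of each are given, because the probes of one gene moved in different directions.
Itga6, GTT-run probe: gaggtcTTGTTGTTGTTGTTGttctgacct
Itga6, second probe: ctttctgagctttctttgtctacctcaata
Itgal, brightest probe: acttgagagccctggctctgaccagcttca
Itgal, neighbouring probe: tggggaagagaccaaagatatgggctgtct
Itgal, upstream probe: gtcccactgctctgtcttttattaacaatg

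In the CD24+ CD29-high cells against macrophages, 6 of 10 laminin chains and 3 of 4 laminin-binding integrins tested were higher, and 5 of 8 leukocyte integrins were lower. Of 36 members tested, 9 were higher and 5 lower at a limma adjusted p under 0.05 and at least 2-fold, and 22 did not pass. Over all 31044 genes tested, 883 were higher (2.84%) and 1101 lower (3.55%). No member of the other groups passed. The median difference was 2.41 over 10 laminins and -2.56 over 8 leukocyte chains, beside -0.04 over all genes. Both CD24+ CD29-high arrays lay above all 4 macrophage arrays for 18 of the 36 members (15.9% of all genes) and below them for 6 (19.3% of all genes). Itgb1 is CD29, by which the cells were sorted, and was not tested. Lamb2 was not tested either, because its spot was an outlier on the array of KO replicate 2.

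The limits of this comparison lie in the arrays. The CD24+ CD29-high cells were on one slide and the macrophages on another, so slide and cell type cannot be told apart, and with bulk RNA fewer cells of a type and less RNA per cell cannot be told apart either. The arrays pooled as CD24+ CD29-high cells are the Dll1-high and Dll1-low fractions of one gate, not replicates of one state. For this group the SE and limma adjusted p therefore do not measure a spread between replicates. Leaving out either the Dll1-high or the Dll1-low array left 0 genes past the threshold, members included, with all 14 called members keeping their direction; the lone array was then assumed to vary like the other groups. Without KO replicate 1, or without KO replicate 2, 3 members were higher and 4 lower. Without WT replicate 1 there were 11 higher and 5 lower, and without WT replicate 2 there were 14 and 5. Against WT macrophages alone 3 members were higher (Lama1 and Lamb3 among them) and 2 lower (Itga4, Itgax). With each array centred on its median in place of loess, the split over all genes became 655 higher and 47 lower, the median of all genes moved to 0.19, and 9 members were higher and 2 lower. Itga4, Itgax, Lama1 and Lamb3 passed under every alternative run except those that leave out a CD24+ CD29-high array, and, for Lama1, the filter that asks for signal on every array.

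**Figure D1:**
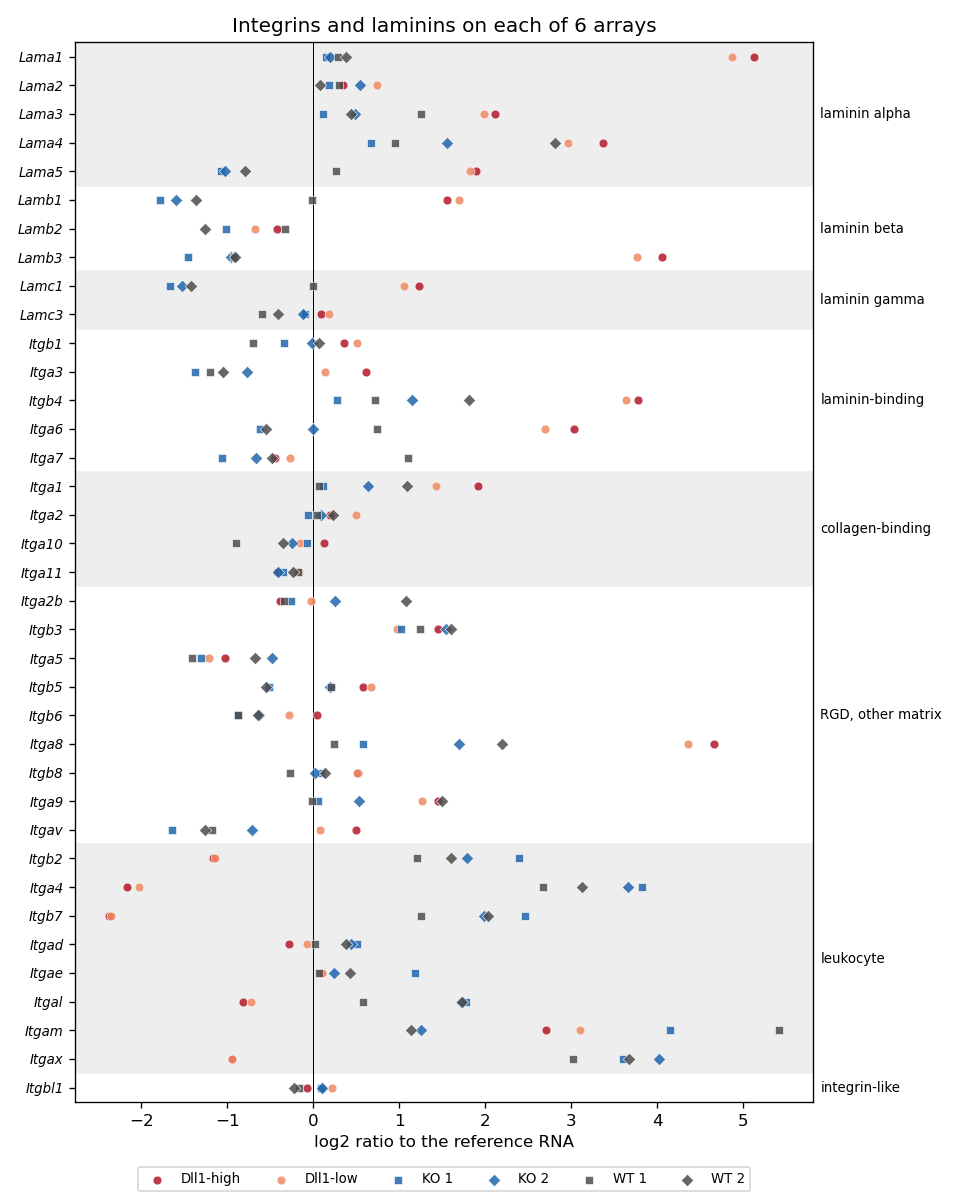
Log2 ratio to the reference RNA (horizontal axis) of 37 of the 38 genes, by the brightest probe, on the 6 arrays; circles are CD24+ CD29-high cells, squares replicates 1 and diamonds replicates 2 of KO (blue) and WT (grey) macrophages. Lama1 and Lamb3 lie at 3.77 to 5.13 for both sorts of CD24+ CD29-high cells and at or below 0.38 in macrophages, and Itga4, Itgb7, Itgb2 and Itgax show the opposite arrangement.

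Lama3 and Lamb3 are chains of the epithelial laminin of hemidesmosomes. Lamb3, its beta chain, read 4.05 and 3.77 in Dll1-high and Dll1-low cells against -1.46, -0.95, -0.93 and -0.91 in KO replicates 1 and 2 and WT replicates 1 and 2. Both CD24+ CD29-high values were above all 4 macrophage values, with a difference of 4.97 (SE 0.22, 31.4-fold, limma adjusted p 0.0040). Lama3, its alpha chain, was measured by 2 probes. The brighter read 2.12 and 1.99 against 0.12, 0.48, 1.26 and 0.44, without overlap, but its difference of 1.48 (SE 0.29) missed the threshold (limma adjusted p 0.056). The second probe read 5.40 and 4.90 against 0.57, 0.25, -0.07 and 0.89. With the mean of both probes the difference was 3.11 and passed (limma adjusted p 0.0034), so the size of the Lama3 difference depends on the probe and its direction does not.

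Among the other alpha chains, Lama1 and Lama5 were higher and Lama2 and Lama4 did not pass. Lama1, the chain of the first laminin of the embryo, read 5.13 and 4.87 on the Dll1-high and Dll1-low arrays, against 0.15, 0.19, 0.29 and 0.38 in macrophages. The difference of these ratios was 4.75 (SE 0.16, 26.8-fold, limma adjusted p 0.0040). No macrophage array had signal well above background for Lama1, so its level there is a bound. On another scale, that of the sample channel alone after normalization between arrays, the cells were at least 85.7-fold higher; this value is open to dye bias and is no bound on the fold of the ratios. Lama5, the widespread epithelial alpha chain, read 1.89 and 1.83 against -1.08, -1.03, 0.27 and -0.79, a difference of 2.51 (SE 0.33, 5.71-fold, limma adjusted p 0.021), with WT replicate 1 the macrophage array nearest to the CD24+ CD29-high cells. Lama4, a chain of vessel and mesenchymal basement membranes, read 3.38 and 2.96 against 0.67, 1.55, 0.95 and 2.82. WT replicate 2 almost reached the CD24+ CD29-high level, and the difference of 1.67 (SE 0.60) did not pass (limma adjusted p 0.215; 0.92 with processed signals); in the same sample the endothelial markers had their highest median (3.39, against 1.69, 2.18 and 2.78), and their part in the result was not tested. Lama2, the alpha chain of muscle laminin, differed by 0.27 (SE 0.21) and its ranges overlapped (0.35 and 0.74 against 0.08 to 0.54).

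The common beta and gamma chains Lamb1 and Lamc1, which can pair with Lama1 and Lama5, were both higher. Lamb1 read 1.56 and 1.69 against -1.78, -1.60, -0.01 and -1.36, a difference of 2.81 (SE 0.41, 7.04-fold, limma adjusted p 0.027). Lamc1 read 1.23 and 1.06 against -1.67, -1.52, -0.01 and -1.42, a difference of 2.30 (SE 0.42, 4.92-fold) close to the threshold (limma adjusted p 0.0485). Lamc1 lost its call when low-signal genes were kept in the table, when the signals processed by the scanner software were used, and on the sample channel alone. For both Lamb1 and Lamc1 the macrophage array at -0.01 was WT replicate 1. Lamb2, the beta chain of synapse and kidney laminins, read -0.43 and -0.68 against -1.01 in KO replicate 1, -0.32 in WT replicate 1 and -1.26 in WT replicate 2, and overlapped. Lamc3 differed by 0.45 (SE 0.15, limma adjusted p 0.196), from 0.10 and 0.19 against -0.60 to -0.09.

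Among integrin chains that bind laminin, Itga3, Itga6 and Itgb4 were higher and Itga7 was not. Itgb4, the beta chain of hemidesmosomes, read 3.78 and 3.64 against 0.28, 1.15, 0.72 and 1.82, a difference of 2.72 (SE 0.42, 6.57-fold, limma adjusted p 0.031). Its call was lost with the scanner's processed signals (2.78, limma adjusted p 0.098), median centring (3.08, 0.070) and a trended, robust variance (2.72, 0.093). Itga3, which pairs with Itgb1 to bind epithelial laminins, read 0.61 and 0.13 against -1.38, -0.77, -1.20 and -1.05, a difference of 1.47 (SE 0.26, 2.78-fold, limma adjusted p 0.044). It was above background on 1 of 4 macrophage arrays, and its call was lost with processed signals (3.55, limma adjusted p 0.076) and with the sample channel alone (0.97, 0.159). Itga7, the laminin receptor of muscle, read -0.44 and -0.27 against -1.06, -0.66, 1.11 and -0.48. The value of 1.11 was again WT replicate 1, and the difference was -0.08 (SE 0.48). Itgb1, the common beta chain of these receptors, read 0.36 and 0.51 against -0.34, -0.02, -0.70 and 0.06 with its brighter probe, and 0.12 and 0.52 against -0.54, -0.75, -1.25 and -0.75 with the other.

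For Itga6 the call rested on the probe. The GTT-run probe read 3.03 and 2.70 against -0.62, 0.00, 0.74 and -0.55, a difference of 2.97 (SE 0.43, 7.83-fold, limma adjusted p 0.028). The second probe ran the other way, at -0.80 and -0.85 against -0.36, -0.21, 1.32 and 0.08. With the mean of both the difference was 0.97 and did not pass (limma adjusted p 0.258). The 10 other probes on the array with a run of at least 5 GTT units had ratios of 0.81 to 1.87 in Dll1-high and 1.04 to 2.56 in Dll1-low cells, below the Itga6 probe on both arrays. In KO replicate 1 they read 0.20 to 3.08 and in WT replicate 2 0.19 to 0.75, above the Itga6 probe. In KO replicate 2 they read 0.04 to 0.96, just above the Itga6 probe, and in WT replicate 1 0.73 to 4.77, a range that held it. The Itga6 probe thus lay outside the range of these probes on 5 of the 6 arrays, in KO replicate 2 by less than 0.1.

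For Itgam the brightest probe moved with other probes that share its repeat. This probe read 2.71 (Dll1-high) and 3.10 (Dll1-low), then 4.16 and 1.25 in KO and 5.42 and 1.14 in WT macrophages. The macrophage values split by replicate number, with both replicates 1, which lay in the first row of the slide, high and both replicates 2, in the second row, low. The 26 other probes of any gene with a run of at least 9 CA units had medians of 2.76 and 3.24, 3.63 and 0.35, and 5.24 and 0.35 on the same arrays, and the Itgam probe lay inside their range on 3 of the 6 arrays and within 1 log2 unit of it on the others. The difference of -0.09 (SE 1.45) by this probe comes from a reading that moved from array to array with those of other genes whose probes carry the run; the part of the run in it was not tested. The second Itgam probe read 0.10 and -0.02 against 0.72, 1.02, 1.05 and 1.14, with no overlap. Its difference of -0.95, taken as an alternative chosen after seeing the data, had an SE of 0.17 and a limma adjusted p of 0.0449, and missed the call by the 2-fold limit alone. The dimmest probe lay between -0.22 and 0.29 on all 6 arrays.

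**Figure D2:**
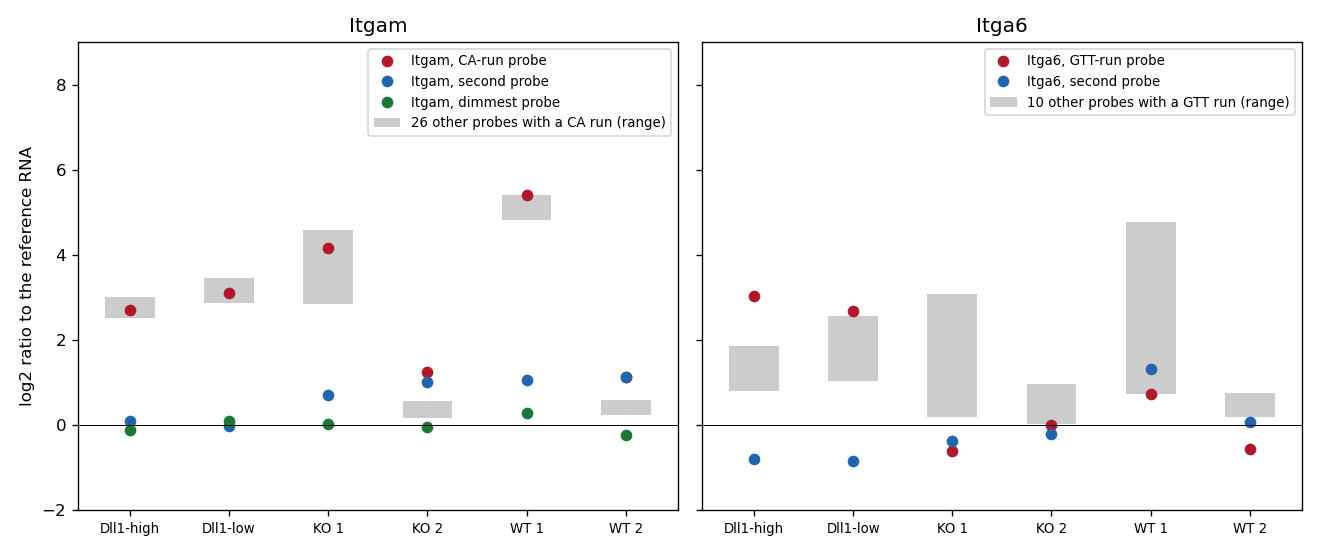
Log2 ratio to the reference RNA (vertical axis) on the 6 arrays for the 3 probes of Itgam (left) and the 2 probes of Itga6 (right); grey bars give the lowest to highest value of the other probes on the array that hold the same repeat. The CA-run probe of Itgam follows the grey bars from 5.42 in WT replicate 1 to 1.14 in WT replicate 2, while the GTT-run probe of Itga6 lies above its bars in both CD24+ CD29-high samples and below them in KO replicate 1 and WT replicate 2.

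Of the leukocyte chains, 5 of 8 were lower in the CD24+ CD29-high cells. Itga4, the alpha chain of VLA-4, which binds Vcam1, read -2.16 and -2.02 against 3.83, 3.66, 2.67 and 3.13. The groups were more than 4 log2 units apart, with a difference of -5.41 (SE 0.20, 42.7-fold lower, limma adjusted p 0.0040). Another Itga4 probe was not well above background on any array, and the mean of all probes gave -2.83, which passed (limma adjusted p 0.0035). Itgax, the alpha chain CD11c of macrophages and dendritic cells, read -0.94 on both arrays against 3.60, 4.02, 3.03 and 3.68, a difference of -4.52 (SE 0.26, 23.0-fold lower, limma adjusted p 0.0043). Itgb7, the beta partner of Itga4 and Itgae, read -2.38 and -2.35 against 2.47, 1.98, 1.26 and 2.03, a difference of -4.30 (SE 0.29, 19.7-fold lower, limma adjusted p 0.0055). It did not pass with median centring (-3.46, limma adjusted p 0.125). Itgb2, the shared beta chain CD18 of Itgal, Itgam, Itgax and Itgad, read -1.17 and -1.14 against 2.40, 1.79, 1.21 and 1.60, a difference of -2.90 (SE 0.25, 7.49-fold lower, limma adjusted p 0.0082). It too did not pass with median centring (-1.96, limma adjusted p 0.216).

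Itgal read -0.81 and -0.72 against 1.77, 1.73, 0.58 and 1.73 with its brightest probe, a difference of -2.22 (SE 0.35, 4.66-fold lower, limma adjusted p 0.034) that was lost with processed signals (-2.19, limma adjusted p 0.112) and median centring (-1.50, 0.278). The neighbouring probe gave -1.38 and -1.26 against 0.91, 1.25, -0.99 and 1.30. The upstream probe gave 0.52 and 0.53 against 0.07, -0.07, 0.98 and -0.34, and did not show the difference; the mean of all probes gave -1.26 and passed (limma adjusted p 0.047). On all 5 of the lower chains WT replicate 1 was the lowest macrophage array, as it was for the macrophage marker median. Markers of other leukocytes were also among the lower genes. Beside 7 of 10 macrophage markers, 4 of 5 dendritic cell, 3 of 4 monocyte, 2 of 5 B cell, 1 of 6 T cell and 1 of 6 neutrophil markers were lower in the CD24+ CD29-high cells, and 0 of 4 NK cell and 0 of 4 mast cell markers. The dendritic cell medians were 3.09 to 3.75 in macrophages and 0.27 to 0.29 in the CD24+ CD29-high cells, and the part of these cells in the leukocyte chain differences was not tested. The remaining chains, Itgad and Itgae, were well above background on only 2 and 3 of 6 arrays, so their ratios near 0 are not read as levels. Itgad, the alpha chain CD11d, was well above background on 1 CD24+ CD29-high and 1 macrophage array and differed by -0.51 (SE 0.18). Itgae, the alpha chain CD103 of lymphocytes that bind E-cadherin, was well above background on 1 of 4 macrophage arrays (KO replicate 1, at 1.19). It differed by -0.38 (SE 0.32). Itgal, Itgam, Itgax and Itgad lie on chromosome 7. The starts of their brightest probes were 784.6 kb apart for Itgal and Itgam, 32.3 kb for Itgam and Itgax and 54.8 kb for Itgax and Itgad.

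**Figure D3:**
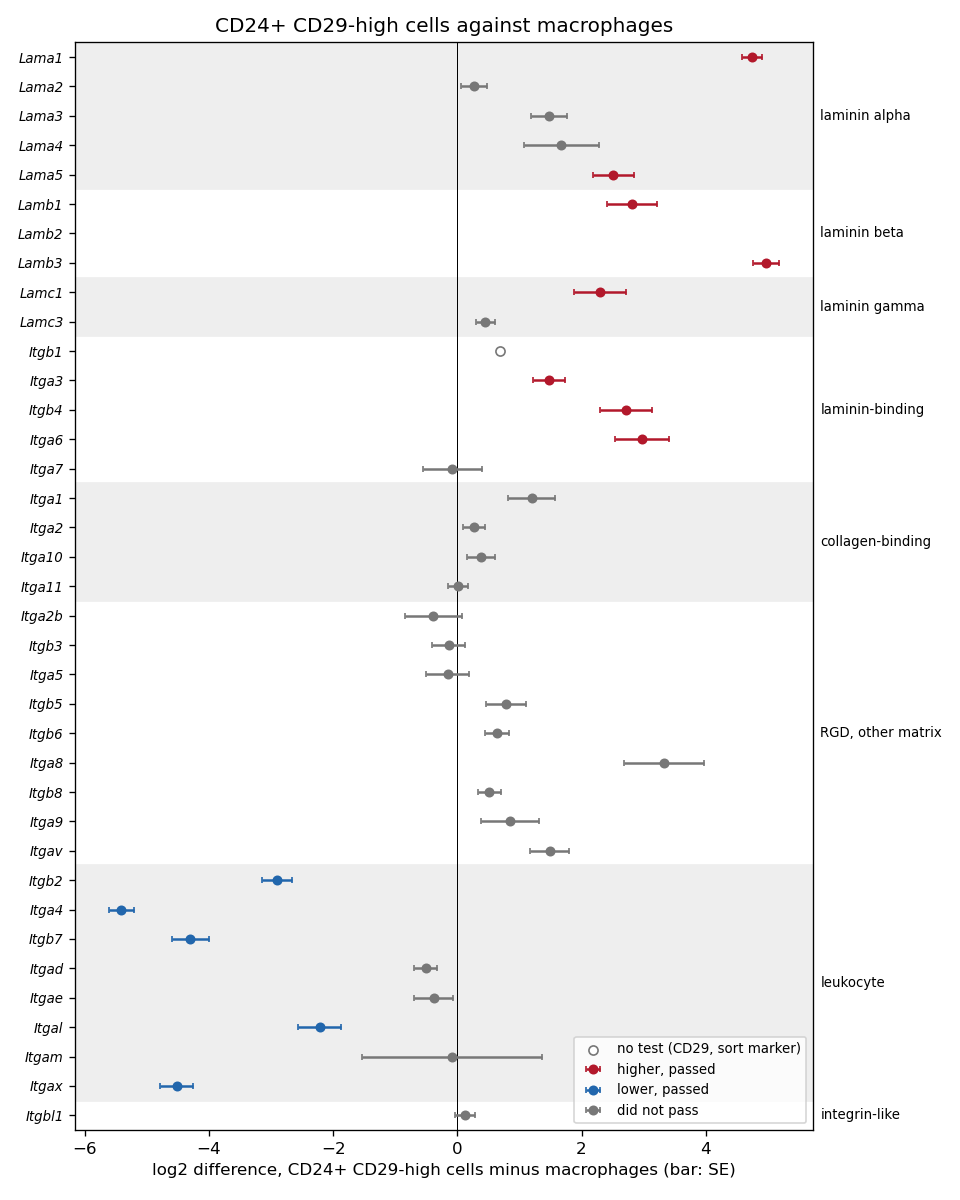
Log2 difference of the CD24+ CD29-high cells (2 arrays) minus macrophages (mean of KO and WT, 2 arrays each) on the horizontal axis, with its SE as a bar, for each gene shown, by its brightest probe; red and blue passed the threshold, grey did not and the open circle is Itgb1. Lamb3 lies at 4.97 and Itga4 at -5.41, and the bar of Itgam, with an SE of 1.45, is the widest.

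None of the 4 collagen receptor chains and none of the 9 chains of RGD and other matrix receptors passed the test, beside 2.84% of all genes called higher and 3.55% lower. Itga8, a receptor for nephronectin and fibronectin, had the largest difference among them. It read 4.66 and 4.36 against 0.58, 1.70, 0.24 and 2.20, with no overlap, and its difference of 3.33 (SE 0.65) missed the threshold (limma adjusted p 0.055). It passed without WT replicate 1 (2.84, limma adjusted p 0.022), without WT replicate 2 (3.82, 0.014) and with the filter that asks for signal on every array (3.33, 0.0415). With the scanner's processed signals and the submitters' value table the difference was 1.45 (limma adjusted p 0.689). Itgav, the alpha chain of vitronectin receptors, read 0.50 and 0.08 against -1.64, -0.71, -1.18 and -1.25, a difference of 1.48 (SE 0.32, limma adjusted p 0.070; 0.91 on the sample channel alone), and its second probe 0.93 and 0.98 against -0.04, 0.51, -0.85 and 0.07. Itga1, a collagen receptor chain, read 1.92 and 1.42 against 0.11, 0.63, 0.07 and 1.09, a difference of 1.19 (SE 0.38, limma adjusted p 0.164). It passed without WT replicate 2 (1.45, limma adjusted p 0.043).

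The beta partners of Itgav had smaller differences. Itgb5 differed by 0.79 (SE 0.32), Itgb6 by 0.64 (SE 0.19), Itgb8 by 0.52 (SE 0.18) and Itgb3, the chain of platelets and of osteoclasts, by -0.14 (SE 0.26). Itgb6, Itgb8 and the collagen receptor chain Itga2 had no macrophage array well above background, so their macrophage levels are bounds. On the scale of the sample channel alone, which is not that of the ratios, they were at least 1.57-fold, 1.08-fold and 1.32-fold higher in the CD24+ CD29-high cells. None of these passed. Itga9, a receptor for tenascin, differed by 0.84 (SE 0.47), Itga10 by 0.38 (SE 0.23), Itga5, the fibronectin receptor chain, by -0.15 (SE 0.35), Itga2b, the platelet chain, by -0.39 (SE 0.45), Itgbl1 by 0.13 (SE 0.16) and Itga11 by 0.00 (SE 0.16). The Itgb3 probes disagreed in sign, with a difference of 0.73 for the second. Over the 13 genes with several probes, the sign of this difference was shared by all probes for 9 genes and not for 4 (Itga6, Itgal, Itgb3 and Itgbl1).

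Genes that work with these receptors were read from lists chosen with earlier results of these data known. Among hemidesmosome genes 5 of 6 were higher in the CD24+ CD29-high cells and 0 lower, beside 2.84% and 3.55% of all genes. Col17a1, a transmembrane collagen of hemidesmosomes, differed by 5.04 (SE 0.51), the keratins Krt14 and Krt5 by 2.98 (SE 0.32) and 2.68 (SE 0.15), and Cd151, a tetraspanin partner of Itga3 and Itga6, by 2.52 (SE 0.35). Basement membrane partners were higher for 4 of 12 and lower for 0. The anchoring fibril collagen Col7a1 differed by 5.08 (SE 0.34), Col4a5 by 3.90 (SE 0.37), Col18a1 by 3.24 (SE 0.33) and Col4a1 by 3.14 (SE 0.33). Of 5 laminin receptors outside the integrin family 3 were higher: the dystroglycan gene Dag1 by 2.43 (SE 0.43), the syndecan Sdc1 by 2.43 (SE 0.18) and Bcam by 2.26 (SE 0.26). Matrix ligands of integrins were higher for 3 of 10, Ccn2 by 3.62 (SE 0.32), Postn by 3.54 (SE 0.32) and Mfge8 by 1.58 (SE 0.19). Of 10 cell surface ligands of leukocyte integrins only Cdh1, the E-cadherin that Itgae binds, was higher, by 2.67 (SE 0.45).

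The cytoplasmic activators and adaptors of integrins moved in both directions, with 6 of 25 higher and 7 lower. Parva, a parvin of focal adhesions, was higher by 2.88 (SE 0.23), the kindlin Fermt2 by 2.31 (SE 0.25) and Vcl, vinculin, by 2.03 (SE 0.22). Fermt1, the kindlin of epithelia, was not well above background in macrophages and differed by 2.18 (SE 0.18, limma adjusted p 0.0082), or at least 3.30-fold on the sample channel alone. Lower were Fyb, an adaptor of T cells and myeloid cells, by -4.92 (SE 0.46), its partners Skap2 by -3.20 (SE 0.26) and Skap1 by -2.97 (SE 0.42), and Apbb1ip, which links Rap1 to talin, by -2.90 (SE 0.24). Other genes of the list are named here after their values were seen. Parvg was lower by -2.17 (SE 0.17), and Parvb differed by -0.52 (SE 0.26) without passing. Ptk2b was lower by -2.03 (SE 0.21) and Tln1 by -1.25 (SE 0.21). Their paralogues Ptk2 (0.59, SE 0.43) and Tln2 (0.58, SE 0.21) did not pass. Fermt3, the kindlin of blood cells, differed by -1.61 (SE 0.33) and did not pass (limma adjusted p 0.064).

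Between KO and WT macrophages no member and no other gene passed the test. Of 24766 genes 0 were called (0%) by limma, 31 had an unadjusted p under 0.05 (62 with a trended, robust variance), and the smallest adjusted p was 0.999. With so few arrays, the lack of calls does not show that the genotypes are alike. The number of genes at an unadjusted p under 0.05 turned on single arrays. It was 9 without KO replicate 1, 317 without KO replicate 2, 79 without WT replicate 1 and 4554 without WT replicate 2, with 0 genes called by limma each time. Of the 38 members 30 were measured well enough to be tested. Both KO arrays lay above both WT arrays for 5 of them (6.67% of all genes) and below for 6 (13.5% of all genes), and 19 overlapped. The members without overlap and at least 0.5 apart are described here by their values. Itga4 read 3.83 and 3.66 in KO and 2.67 and 3.13 in WT macrophages, a difference of 0.85 (SE 0.35). Itgb2 read 2.40 and 1.79 against 1.21 and 1.60, a difference of 0.69 (SE 0.39). Both lay higher in KO on every array, and 5 of the 6 leukocyte chains tested had positive differences, with a list median of 0.59 beside -0.10 over all genes. The shift was not particular to these chains: macrophage markers were positive for 9 of 10 genes, with a median of 0.53.

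Of 9 laminin chains tested none passed, 7 had negative and 2 positive differences (Lamc3 and Lama2, at 0.40 and 0.17), and their median was -0.55. Over all genes 14848 of 24766 were negative. Basement membrane partners were negative for 10 of 11 genes, with a median of -0.64. The 3 laminins without overlap and at least 0.5 apart, and the integrin chain Itga7, lay lower on both KO arrays than on both WT arrays. Lama5 read -1.08 and -1.03 in KO and 0.27 and -0.79 in WT macrophages, a difference of -0.79 (SE 0.48). Lamb1 read -1.78 and -1.60 against -0.01 and -1.36, a difference of -1.003 (SE 0.56). Lamc1 read -1.67 and -1.52 against -0.01 and -1.42, a difference of -0.88 (SE 0.58). Itga7 read -1.06 and -0.66 against 1.11 and -0.48, a difference of -1.18 (SE 0.64). In each of the 4 genes WT replicate 1 was more than 1 log2 unit above WT replicate 2, and WT replicate 2 was within 0.5 of the nearer KO array. For the 3 laminins this order depends on the normalization. In unnormalized spot signals, sample over reference, Lama5 read 791 over 3448 in WT replicate 1 and 1151 over 3023 in WT replicate 2. Lamb1 read 1475 over 8830 and 1854 over 7066, and Lamc1 758.5 over 4030.5 and 775 over 3163. Itga7 read 586.5 over 1160.5 and 534 over 1117. Without WT replicate 1 the differences fell in size to -0.26 for Lama5, -0.33 for Lamb1, -0.17 for Lamc1 and -0.39 for Itga7, and those of Itga4 and Itgb2 to 0.62 and 0.50. Without WT replicate 2 they were -1.32, -1.68, -1.59, -1.97, 1.08 and 0.89 in the same order, with limma adjusted p from 0.219 to 0.398. Under median centring the all-gene median went from -0.10 to 0.46 and turned Lama5 to 0.35, Lamb1 to 0.22 and Lamc1 to 0.28, still below that median, with Itga7 at -0.04, Itga4 at 1.85 and Itgb2 at 1.63. On the sample channel alone Lama5, Lamb1 and Lamc1 were at -0.42, -0.43 and -0.45 and Itgb2 at 1.21. The mean of all probes gave 0.42 for Itga4, and without KO replicate 1 Itgb2 was at 0.39.

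Marker lists of other cells also differed between the macrophage arrays. The fibroblast median was 0.81 in WT replicate 1 and -0.51, -0.72 and -1.15 in KO replicates 1 and 2 and WT replicate 2, over 8 genes of which 7 or 8 were well above background on each array, with single genes from -3.51 to 3.94. The macrophage median was 2.20 in WT replicate 1 and 4.00 to 4.43 on the other arrays, with 10 of 10 genes well above background on each. The endothelial medians were 1.69 and 2.18 in KO and 2.78 and 3.39 in WT macrophages. In WT replicate 1 the basal and luminal medians were also highest, both at 0.94. On the other macrophage arrays they were 0.29 to 0.75 and 0.43 to 0.51. Markers of other leukocytes had positive differences, KO minus WT, for 5 of 5 B cell genes (median 0.76), 4 of 4 NK cell (0.54), 4 of 4 monocyte (0.57), 3 of 4 mast cell (1.19), 5 of 6 T cell (0.29), 4 of 5 neutrophil (0.28) and 3 of 5 dendritic cell genes (0.06), and none passed. Endothelial markers were negative for 8 of 8 genes (median -0.87) and fibroblast markers for 7 of 8 (-0.51), again with 0 called. The part of these cells in the KO and WT differences of laminins and leukocyte integrins was not tested.

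**Figure D4:**
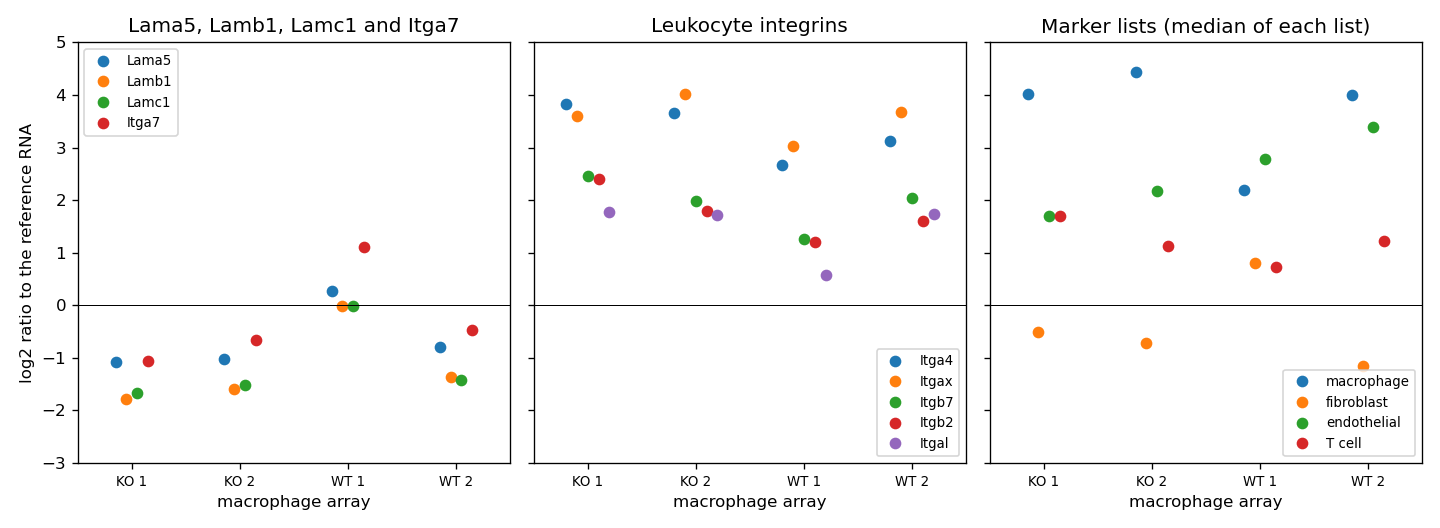
Log2 ratio to the reference RNA (vertical axis) on the 4 macrophage arrays for Lama5, Lamb1, Lamc1 and Itga7 (left), for 5 leukocyte integrin chains (middle) and for the median of 4 marker lists (right). In these loess-normalized ratios WT replicate 1 has the highest values of the left panel (-0.01 to 1.11) and the lowest of the middle panel. It also has the highest fibroblast median (0.81) and the lowest macrophage median (2.20).

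Of the other members with no overlap, Lamb3 was lower in KO by -0.28 (SE 0.35) and Itga11 by -0.17 (SE 0.31), and Itga10, Lamc3 and Itgbl1 were higher by 0.47 (SE 0.36), 0.40 (SE 0.31) and 0.30 (SE 0.31). The members that overlapped had differences from -0.77 (Lama4, SE 0.78) to 0.59 (Itgal, SE 0.50), and Itgam by its CA-run probe differed by -0.58 (SE 1.82). Itga2, Itga3, Itgad, Itgae, Itgb6, Itgb8 and Lama1 had too few macrophage arrays above background for the test.

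Between Dll1-high and Dll1-low CD24+ CD29-high cells no integrin or laminin reached a 2-fold difference. Each state had 1 array, so there is no replicate check and no p-value. Among 32150 genes compared, 30 were higher (0.0933%) and 33 lower (0.103%) in Dll1-high cells by 2-fold or more. Member differences, Dll1-high minus Dll1-low, ran from -0.39 to 0.50, with 20 of 38 positive and a median of 0.04. Over all genes 14087 of 32150 were positive and the median was -0.03. For scale, 399 probes were spotted 10 times, and their spot-to-spot SD of this difference was 0.119 in the median and 0.25 at the 95th percentile, which covers the spotting and not the animals or the labelling. Laminins had a median of 0.18, with 8 of 11 positive. All 8 leukocyte chains were negative by the brightest probe, with a median of -0.06 and values from -0.39 to 0.00. Over all genes 18063 of 32150 were negative. The value of -0.39 was Itgam by its CA-run probe, and its other probes differed by 0.12 and -0.20.

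The members at least 0.4 apart were Itga1, Itga3, Itgav, Itgb3 and Lama4, all higher in Dll1-high cells. Itga3, the laminin receptor chain with a single probe, read 0.61 in Dll1-high and 0.13 in Dll1-low cells, a difference of 0.48. Lama4 read 3.38 and 2.96, a difference of 0.41 that was -0.008 with the scanner's processed signals. For the rest another probe of the same gene did not repeat the difference. Itga1 read 1.92 and 1.42 (0.50), and 0.63 on both arrays with its second probe. Itgb3 read 1.45 and 0.97 (0.47), and 1.49 and 1.87 (-0.38) with its second probe. Itgav read 0.50 and 0.08 (0.43), and 0.93 and 0.98 (-0.05) with its second probe.

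Probes of one gene gave the same sign for 8 of the 13 genes with several probes. Lama2 was lower in Dll1-high cells by -0.39 and -0.33, Itgb1, the sort marker CD29, by -0.15 and -0.40, and Itgb6 was higher by 0.32 and 0.55. Lama3 was higher by 0.13 and 0.50, in the order of brightness. Chains with large cell type differences differed little between the states: Lamb3 by 0.29, Lama1 by 0.26, Itgb4 by 0.14, Itga6 by 0.33 and Lama5 by 0.06. The fibroblast markers had a median of -0.86 in Dll1-high and -0.30 in Dll1-low cells, and the luminal markers 0.63 and 1.05; their part in these small differences was not tested.

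**Figure D5:**
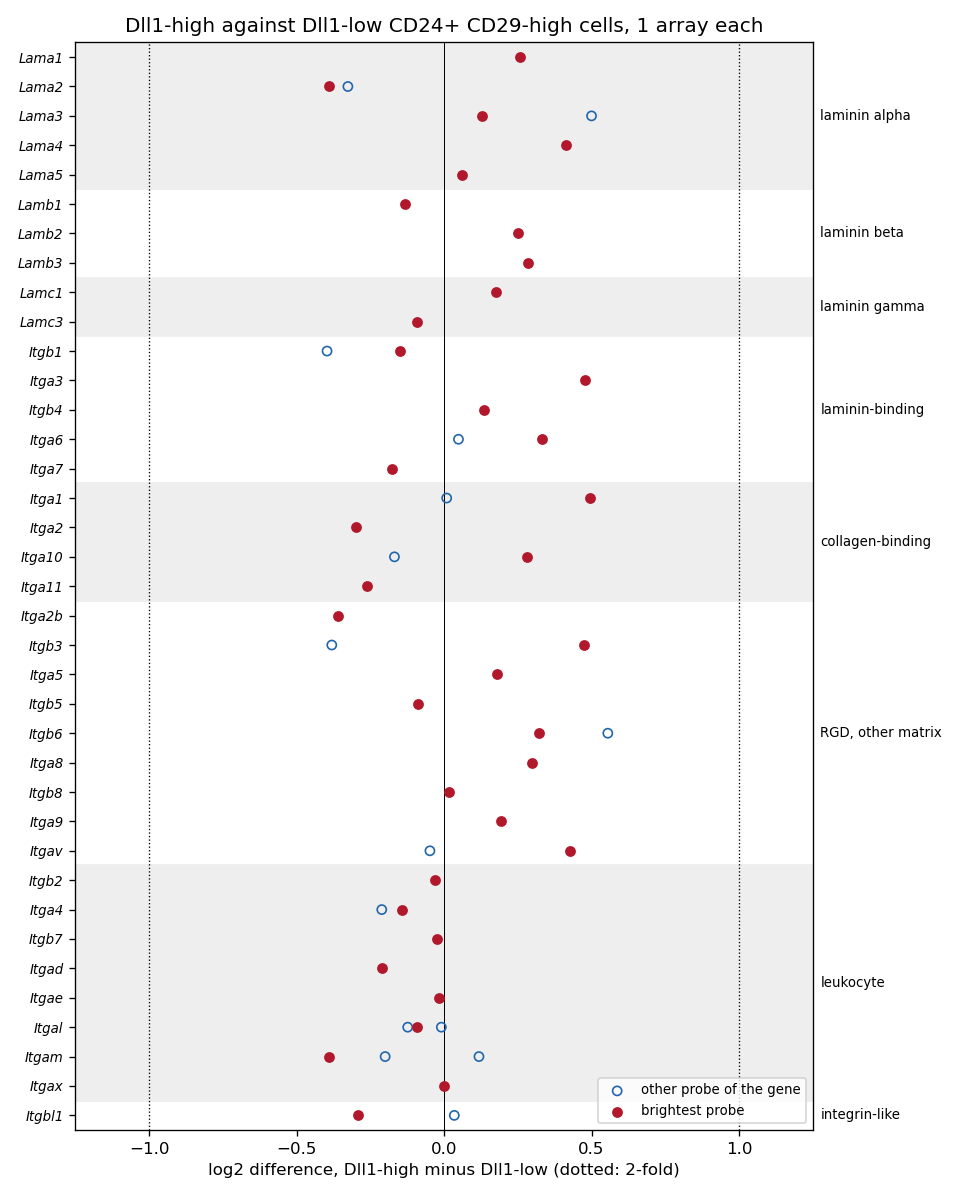
Log2 difference of Dll1-high minus Dll1-low cells (horizontal axis, 1 array each) for every probe of 37 of the 38 genes; filled points are the brightest probe of a gene, open points its other probes, and dotted lines mark a 2-fold difference. All points lie inside the dotted lines, and for Itgb3, Itgav and Itga1 the open point lies away from the filled one.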

How the data were processed

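RNA of 6 samples (Cy5) was hybridised with universal mouse reference RNA (Cy3, a mix of 11 mouse cell lines) on Agilent arrays, with no dye swap, per the labels. Per the file headers, Feature Extraction 11.0.1.1 (CD24+ CD29-high cells) and 12.0.2.2 (macrophages) made the unprocessed spot intensity values, processed intensity values and the log10 ratio of the processed channels; the submitters' processing notes name 11.0. The deposited table of processed values is in log2 ratios, not centred per array (column medians -0.117 to 0.14).

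Here, median spot signals were used (the planned design did not name them). Background was corrected by normexp (offset 50), ratios were normalized by loess, and 170 to 500 flagged spots per array were left out (limma 3.58.1, R 4.3.3). Spots were averaged to 55681 probes, and the brightest probe on average stood for its gene. Genes were tested by limma with Benjamini-Hochberg adjustment where the sample channel stood well above background on 2 or more of 6 arrays (cell types) or of 4 arrays (KO against WT), and compared where it did so on 1 or more of 2 (Dll1 states). The fits were tested on simulated data. Replicate numbers of KO and WT are not stated to pair animals.

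The members, classes and partner lists were chosen with earlier results of these data known. Members are named at least once, except 1 that is counted but not reported here; partner genes are named by the largest differences that passed, up to 4 each way; KO against WT, members without overlap and at least 0.5 apart; Dll1 states, members at least 0.4 apart. The alternatives were processed signals, the value table, median centring, the mean of all probes, other filters, flagged spots kept, the sample channel alone, other variance models, a replicate block, each array left out and, chosen after seeing the data, probes without CA or GT runs.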

Additional observations from a re-analysis of the deposited data

How the results depend on the processing

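The CD24+ CD29-high against macrophage counts moved most. With the scanner's processed signals, and equally with the submitters' value table, 389 genes were higher and 410 lower. Median centring left 47 genes and 2 members lower. Against WT macrophages alone 95 genes were higher and 115 lower, with 3 and 2 members. With each array left out in turn, all genes ranged from 0 to 1565 higher and 0 to 2444 lower, and members from 0 to 14 higher and 0 to 5 lower. Members near 0 changed sign. Itga11 was -0.225 with the sample channel alone and -0.081 against WT alone (-0.125 to 0.135 with an array left out). Itga5 was 0.348 with processed signals and the value table and 0.13 with median centring (-0.361 to 0.055). Itga7 was 0.036 with processed signals and the value table and 0.684 with median centring (-0.476 to 0.315). Itgam was 0.78 with median centring and 0.863 with the sample channel alone (-1.159 to 0.983). Itgb3 was 0.563 with median centring and 0.296 with the mean of all probes (-0.379 to 0.095). Itgbl1 was -0.001 with the mean of all probes and -0.302 with the sample channel alone (-0.021 to 0.271). The cause was not tested.

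Between KO and WT macrophages 0 genes passed under any alternative; median centring turned Lama5 (0.351), Lamb1 (0.219) and Lamc1 (0.275). The replicate block gave 0 calls and 142 genes at an unadjusted p under 0.05. Over genes the deviations of same-numbered arrays correlated at 0.595 with 2 pairs. Replicate number was also the row of the slide, so pairing of samples and slide row cannot be told apart. Spots well above background were 63.5% and 71.9% for KO and WT replicates 1, and 47.4% and 50.9% for replicates 2. The main KO against WT test has no term for the row. Between Dll1-high and Dll1-low cells, processed signals and the value table gave 334 genes higher and 672 lower, with 1 member lower, Itgad, which is near background, and turned Lama4 to -0.008. The mean of all probes gave 21 lower and the sample channel alone 51. Probes without CA or GT runs left the counts of members as they were. Signal over background was lowest in KO replicate 2 (47.4% of spots well above it), which limits dim members such as Itgad, Itgae, Itgb6 and Itgb8.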
